A study of Citrus sinensis with 6 samples.

Results

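Genes whose names point to the cuticle, its waxes and the transfer of lipids were followed through the self-pruning of sweet orange spring shoots, the natural shedding of the shoot tip at an abscission zone (AZ). They are 44 of the 30171 citrus probe sets of the Affymetrix Citrus Genome Array and were chosen by the start of the gene name that the array's annotation gives each probe set. The starts found were gdsl (15 probe sets), lipid t (9), non-spe (4), nonspec (3), cer1 (3), fatty a (3), cuticle (2), 3-ketoa (2), beta-ket (1), wax (1) and long-ch (1), while the starts cutin and hothead found 0. These 44 probe sets stand for 41 target sequences, since 3 targets have 2 probe sets each. The names are cut short on the array, to a median of 7 letters, and rest on sequence similarity alone, so that a gene is named here only as far as its letters go.

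Shoot tips of field-grown adult trees of the cultivar Cara Cara Navel Orange were collected at 3 stages, and all of them held the AZ. Stage 1 was 3 days before self-pruning, stage 2 was its beginning and stage 3 was 7 days after it, with 2 arrays per stage that the labels call biological replicates. The plants of all stages had the same genotype and received no treatment, and each sample came from a group of trees. The labels call the tissue shoot meristems, but a tip with its AZ holds several tissues, so that fewer cells of a type and less RNA per cell cannot be told apart.

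The cuticle is a layer of cutin, a polyester of hydroxylated fatty acids, and of waxes that epidermal cells lay down on the outer face of the shoot. Waxes are made from very-long-chain fatty acids, which 3-ketoacyl-CoA synthases lengthen and which, in Arabidopsis, CER1 and its partner CER3 (also called WAX2) turn into alkanes. Lipid transfer proteins are small secreted proteins that bind lipids in the wall, and the GDSL family of lipases and esterases includes enzymes that join cutin monomers, as shown in tomato. Both families are large, and members of each have roles outside the cuticle. Suberin, a related polyester, seals inner tissues and the surfaces left where organs are shed.

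Values are the authors' log2 signals from robust multi-array average (RMA) normalization, and the median signal of the citrus probe sets was 7.30 to 7.39 over the 6 arrays. A gene is said to have risen or fallen where the adjusted p of limma, fitted to all 6 arrays and adjusted over all 30171 probe sets, was under 0.05. Changes are log2 differences ± SE, with n = 2 arrays per stage throughout. The 2 arrays of a stage differed by a median of 0.05 over the members and by at most 0.55. The 60 reporter control probe sets read 3.49 to 5.67, and the 23 random-sequence controls read 7.07 to 10.49. On every array, 11 members were at or under the highest reporter signal and 21 were under the lowest random-sequence signal, so that the sizes of changes that start or end there are uncertain.

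Many of the members had changed by stage 2, and by stage 3 the changes were larger and ran in both directions. At stage 3, the GDSL lipase Cit.38686.1.S1_at was 25.1-fold and the lipid transfer gene Cit.20130.1.S1_s_at 7.82-fold higher than at stage 1. Cit.11240.1.S1_at, named CER1 on the array, was 5.74-fold and the beta-ketoacyl gene Cit.26284.1.S1_at 5.52-fold lower at stage 3 than at stage 1. Against stage 1, 16 of the 44 members rose at stage 2 (36.4%, where 20.2% of all citrus probe sets rose) and 7 fell (15.9%, where 21.5% of all fell). At stage 3, 20 members rose (45.5%, where 29.9% of all rose) and 14 fell (31.8%, where 35.9% of all fell). From stage 2 to stage 3, 21 members rose (47.7%, where 29.1% of all rose) and 13 fell (29.5%, where 36.5% of all fell). The median change of the members was 0.12 at stage 2 and 0.15 at stage 3 against stage 1, and that of all citrus probe sets was 0.01 and -0.04. Both comparisons use the same stage 1 arrays. By at least 2-fold, 0 members rose and 0 fell at stage 2 against stage 1 (0.759% and 1.15% of all citrus probe sets did), and 8 rose and 3 fell at stage 3 (7.56% and 6.08% of all did), and 7 rose and 4 fell from stage 2 to stage 3 (7.14% and 4.76% of all did). At stage 3 against stage 1 the share of falls was thus near that of all. At 4-fold with an unadjusted p of at most 0.001, the rule the study set for DEGs, 5 members rose and 3 fell at stage 3 against stage 1 (2.16% and 1.25% of all citrus probe sets did), and 0 rose and 0 fell at stage 2 (0.0729% and 0.361% of all did).

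**Figure D1:**
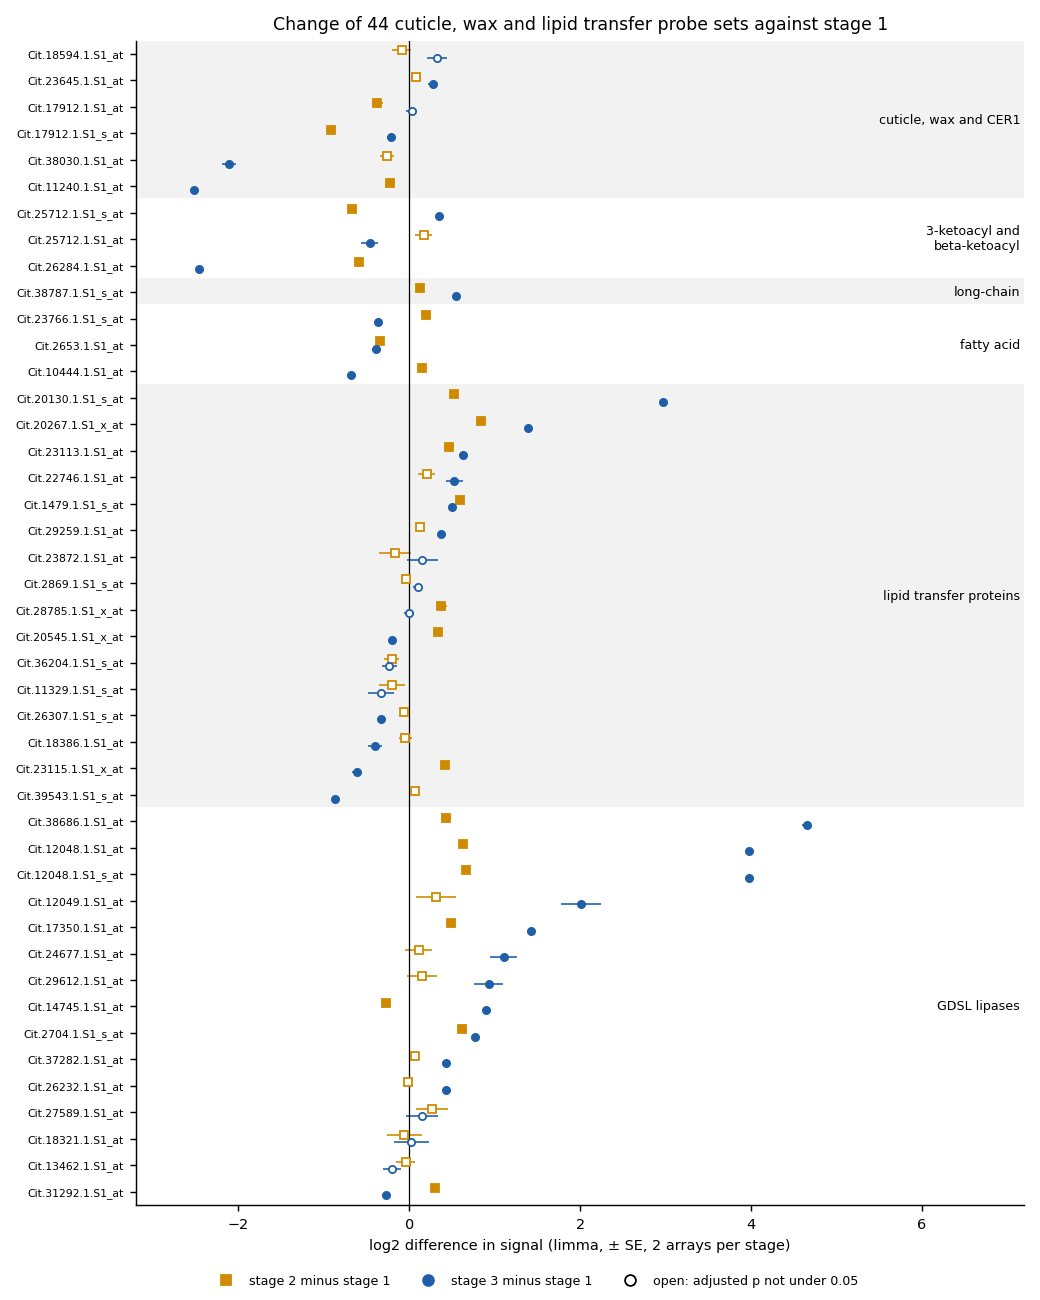
The log2 difference in signal against stage 1 is plotted for each of the 44 members, at stage 2 (squares) and stage 3 (circles), with the SE from limma as bars and open symbols where the adjusted p was not under 0.05. Stage 2 points lie between -0.92 and 0.84, and stage 3 points between -2.52 and 4.65, with the largest rises among the GDSL lipases.

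The shares called at stage 2 depended on the probe sets counted and on the scale. Probe sets ending in _s_at or _x_at can match more than 1 transcript. Without them, 6 of 27 members rose at stage 2 (22.2%) and 5 fell (18.5%), near the 20.2% and 21.5% of all citrus probe sets. At stage 3, 13 of 27 rose (48.1%, where 29.9% of all rose) and 8 fell (29.6%, where 35.9% of all fell). With each array centred on its median, 23.7% of all citrus probe sets rose and 15.3% fell at stage 2, beside 38.6% and 18.2% of the members.

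**Figure D2:**
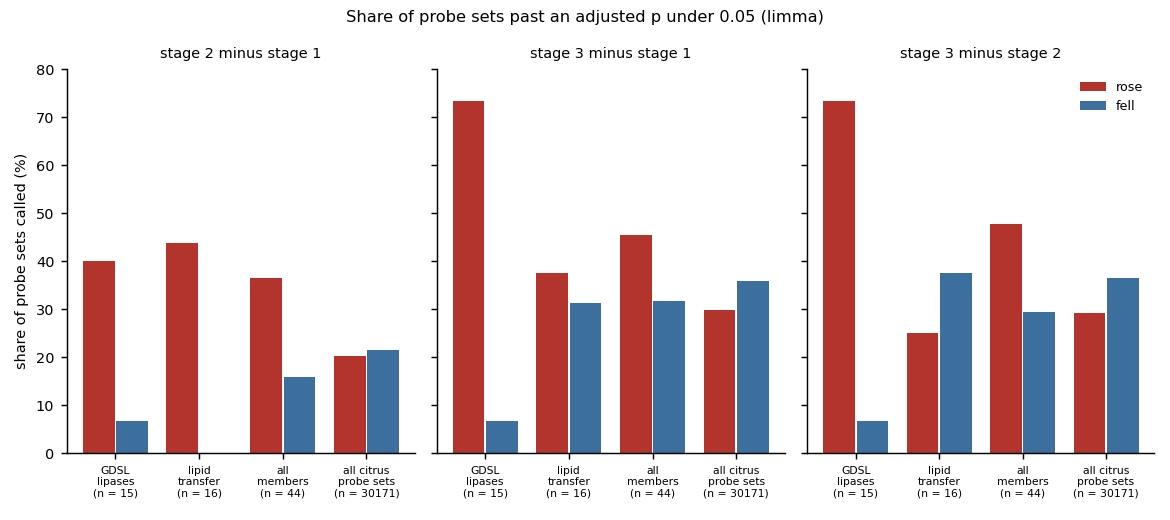
Bars give the percentage of probe sets that rose (red) or fell (blue) at an adjusted p under 0.05 in each of 3 comparisons, for the 15 GDSL lipases, the 16 lipid transfer genes, all 44 members and all 30171 citrus probe sets. At stage 3 against stage 1, 73.3% of the GDSL lipases rose, and 29.9% of all citrus probe sets rose.

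Of the 3 wax gene probe sets named CER1, 2 were lower at stage 3 than at stage 1 and 1 was slightly higher. CER1 takes part in alkane formation in Arabidopsis, and 2 of the 3 probe sets with this name, Cit.11240.1.S1_at and Cit.38030.1.S1_at, have a homologue named protein wax2-like in the study's table of differentially expressed genes (DEGs). WAX2 is the partner of CER1, so that the names of these 2 disagree, and which is right cannot be told here. Signals of Cit.11240.1.S1_at were 7.48 and 7.56 at stage 1, 7.27 and 7.32 at stage 2, and 4.96 and 5.04 at stage 3. Its stages did not overlap, and the stage 3 arrays were far below the rest and under the highest reporter signal, so that the size of the fall is uncertain. It fell by 2.52 ± 0.048 at stage 3 (adjusted p = 5.4e-06) and by 0.22 ± 0.048 at stage 2 (adjusted p = 0.0213), both against stage 1. The stage 2 call was lost without stage 1 replicate 2, stage 2 replicate 1 or stage 2 replicate 2 (adjusted p = 0.0924, 0.0986 and 0.0623).

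Cit.38030.1.S1_at read 7.56 and 7.73 at stage 1, 7.30 and 7.46 at stage 2, and 5.54 and 5.52 at stage 3. Both stage 3 arrays were again the lowest by a wide gap and under the highest reporter signal, and the lower stage 1 array stood just above the higher stage 2 array. This gene fell by 2.11 ± 0.080 at stage 3 (adjusted p = 3.01e-05), and its difference of -0.26 at stage 2 did not pass (adjusted p = 0.0591). That difference passed with each array centred on its median (adjusted p = 0.0481), with a trend in the prior variance (adjusted p = 0.0355) and with the dimmest probe sets left out (adjusted p = 0.0435). The remaining probe set of the name, Cit.23645.1.S1_at, described as CER1-like, was measured at 5.78 and 5.86, 5.83 and 5.97, and 6.12 and 6.08 in stage order. Its stage 3 arrays were the highest, by a narrow margin. It rose by 0.28 ± 0.059 at stage 3 against stage 1 (adjusted p = 0.0118), a call that was lost without stage 1 replicate 1 (adjusted p = 0.0598) or stage 3 replicate 1 (adjusted p = 0.0607). From stage 2 to stage 3 it rose by 0.20 (adjusted p = 0.0371), and only without stage 2 replicate 2 did that call hold; without any of the other 5 arrays the adjusted p was 0.0552 to 0.14.

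The target named cuticle dipped at stage 2. Its name stops at that word, so that the protein's role is not given. Cit.17912.1.S1_s_at read 7.60 and 7.61 at stage 1, 6.71 and 6.65 at stage 2, and 7.33 and 7.44 at stage 3. Both stage 2 arrays were the lowest, and those of stage 3 came back close to but not up to the level of stage 1. The fall at stage 2 was 0.92 ± 0.049 (adjusted p = 5.05e-04), the largest fall of any member at that stage, and the rise from stage 2 to stage 3 was 0.70 (adjusted p = 2.38e-04). Its difference of -0.22 at stage 3 against stage 1 passed (adjusted p = 0.0156), but not without stage 1 replicate 1 (adjusted p = 0.0608) or stage 1 replicate 2 (adjusted p = 0.0704). The second probe set of this target, Cit.17912.1.S1_at, read 6.55 and 6.41, 6.04 and 6.17, and 6.52 and 6.51 in stage order. It dipped in the same way, with a fall of 0.38 ± 0.065 at stage 2 (adjusted p = 0.0112) and a rise of 0.41 from stage 2 to stage 3 (adjusted p = 0.00449).

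A wax synthase joins fatty acids and alcohols into wax esters. The wax synthase gene Cit.18594.1.S1_at read 4.94 and 4.82 at stage 1, 4.87 and 4.70 at stage 2, and 5.33 and 5.07 at stage 3. All its arrays lay within the range of the reporter controls, with those of stage 3 the highest. It rose by 0.41 ± 0.12 from stage 2 to stage 3 (adjusted p = 0.03), and its difference of 0.32 at stage 3 against stage 1 did not pass (adjusted p = 0.0623). Single arrays decided both calls. The rise from stage 2 was lost without stage 1 replicate 1 or 2 (adjusted p = 0.0514 each), stage 2 replicate 2 (adjusted p = 0.123) or stage 3 replicate 1 (adjusted p = 0.0935), and the difference from stage 1 passed without stage 3 replicate 2 (adjusted p = 0.0293) or with a trend in the prior variance (adjusted p = 0.039).

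Of the genes with ketoacyl names, the most highly changed was lower at each later stage. Cit.26284.1.S1_at carries a beta-ketoacyl name on the array and a 3-ketoacyl synthase 11-like homologue in the DEG table; such synthases catalyse the condensing step by which fatty acids grow. Its signals were 10.90 and 10.90 at stage 1, 10.30 and 10.30 at stage 2, and 8.44 and 8.43 at stage 3. The arrays of each stage were nearly equal, and the 3 stages were well apart. It fell by 0.59 ± 0.024 at stage 2 (adjusted p = 2.49e-04) and by 2.46 ± 0.024 at stage 3 (adjusted p = 2.07e-06), each against stage 1, and by 1.87 from stage 2 to stage 3 (adjusted p = 3.63e-06).

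The 2 probe sets of the target Cit.25712 moved in opposite directions. Their name ends after 3-ketoacyl-C, which could continue as a synthase of chain growth or as a thiolase of fatty acid breakdown. Cit.25712.1.S1_s_at read 9.35 and 9.33 at stage 1, 8.68 and 8.67 at stage 2, and 9.70 and 9.69 at stage 3. It was lowest at stage 2 and highest at stage 3, with no overlap. It fell by 0.67 ± 0.026 at stage 2 (adjusted p = 2.31e-04) and rose by 0.35 ± 0.026 at stage 3 (adjusted p = 2.58e-04) against stage 1. The other probe set, Cit.25712.1.S1_at, was dimmer, at 5.94 and 5.98, 6.16 and 6.08, and 5.35 and 5.63 in stage order. It was lowest at stage 3, where it differed by -0.47 ± 0.10 from stage 1 (adjusted p = 0.0135), and without stage 1 replicate 1 or 2 this call was lost (adjusted p = 0.0525 and 0.0648). The direction of this gene at stage 3 is therefore not settled by the array.

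Genes whose names begin long-ch or fatty a were changed by less than 2-fold. The name of Cit.38787.1.S1_s_at stops at long-chain-fa, so that its enzyme is not given. Cit.38787.1.S1_s_at read 9.99 and 10.02 at stage 1, 10.12 and 10.15 at stage 2, and 10.55 and 10.56 at stage 3. It was higher at each later stage with no overlap, by 0.13 ± 0.027 at stage 2 (adjusted p = 0.0212) and by 0.55 ± 0.027 at stage 3 (adjusted p = 7.14e-05) against stage 1. Leaving out any array of stage 1 or stage 2 ended the stage 2 call (adjusted p = 0.0606 to 0.0999).

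All 3 probe sets whose names begin fatty a fell at stage 3 against stage 1, where 35.9% of all citrus probe sets fell. Their enzymes are not given by the letters that are left. Cit.10444.1.S1_at read 11.99 and 12.00 at stage 1, 12.17 and 12.13 at stage 2, and 11.32 and 11.30 at stage 3. Its stage 2 arrays were the highest and its stage 3 arrays the lowest, a fall of 0.68 ± 0.027 at stage 3 (adjusted p = 3.29e-05) after a rise of 0.15 at stage 2 (adjusted p = 0.0114). Cit.23766.1.S1_s_at had the same order of stages, with 7.78 and 7.85, 8.03 and 7.99, and 7.41 and 7.49 in stage order. It rose by 0.20 at stage 2 (adjusted p = 0.0251) and fell by 0.36 ± 0.045 at stage 3 (adjusted p = 0.00172). Neither of these stage 2 rises held when single arrays were left out. For Cit.10444.1.S1_at the adjusted p was 0.0614 without stage 1 replicate 1, 0.0586 without stage 1 replicate 2 and 0.0617 without stage 2 replicate 1, and for Cit.23766.1.S1_s_at it was 0.0507 to 0.111 without any of the 4 arrays of the 2 stages. Cit.2653.1.S1_at read 10.47 and 10.44 at stage 1, 10.10 and 10.13 at stage 2, and 10.09 and 10.04 at stage 3. It was lower at both later stages, by -0.34 ± 0.033 at stage 2 (adjusted p = 0.00217) and -0.39 ± 0.033 at stage 3 (adjusted p = 4.49e-04).

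**Figure D3:**
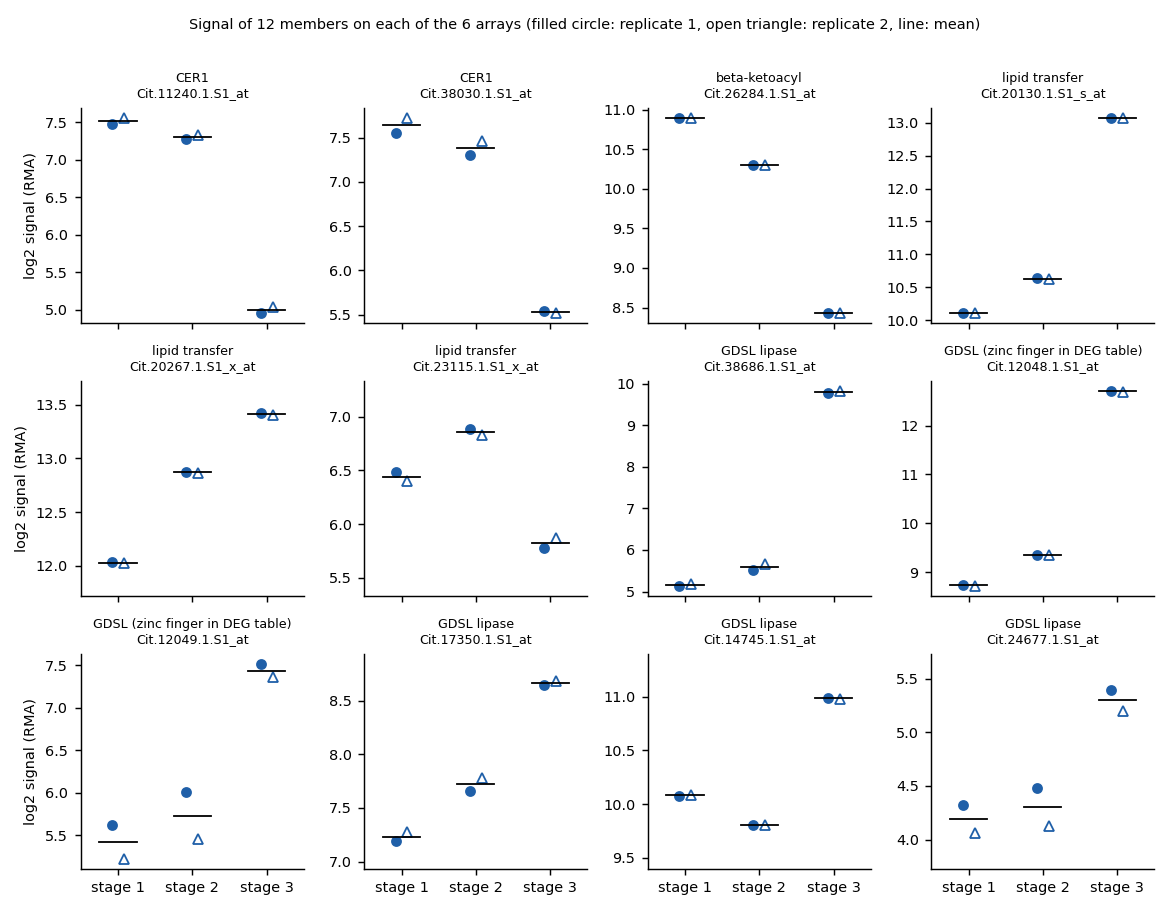
The log2 RMA signal of the 12 members with the largest change in any comparison, with 1 probe set per target, is shown on each of the 6 arrays, with filled circles for replicate 1, open triangles for replicate 2 and lines for the stage means; each panel has its own vertical range. The GDSL lipase Cit.38686.1.S1_at stood at 9.78 and 9.83 at stage 3, while Cit.11240.1.S1_at, named CER1 on the array, stood at 4.96 and 5.04 there.

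Lipid transfer genes rose or stayed below the threshold at stage 2. Of 16 probe sets, 7 rose and 0 fell then by limma (8 and 0 at an unadjusted p under 0.05, median 0.16), or 43.8% and 0.0%, where 20.2% of all citrus probe sets rose and 21.5% fell. Of these 7 rises, 6 were in the 11 probe sets ending in _s_at or _x_at, and 1 was in the 5 others. At stage 3 against stage 1, 6 rose and 5 fell (37.5% and 31.2%, median 0.05), near the 29.9% and 35.9% of all. From stage 2 to stage 3, 4 rose and 6 fell (25.0% and 37.5%), near the 29.1% and 36.5% of all. Cit.20130.1.S1_s_at, a lipid transfer protein gene by both its array name and its homologue, read 10.11 and 10.11 at stage 1, 10.63 and 10.63 at stage 2, and 13.08 and 13.08 at stage 3. The stages were well apart, with the larger step after stage 2. It rose by 0.52 ± 0.024 at stage 2 (adjusted p = 3.55e-04) and by 2.97 ± 0.024 at stage 3 (adjusted p = 1.89e-06) against stage 1, and was the only member of this group to pass 4-fold.

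Among probe sets whose names begin nonspec or non-spe, 5 of 7 rose at stage 2 (71.4%, where 20.2% of all citrus probe sets rose). At stage 3, 4 rose (57.1%, where 29.9% of all rose). Some of these names stop before any word for lipid, as in non-spe, and are counted as lipid transfer proteins by the rule alone. This split by name was not one of the role groups. Of the 5 stage 2 rises, 4 were in probe sets ending in _s_at or _x_at. At stage 2 0 fell, also at an unadjusted p under 0.05 in limma, and at stage 3 1 fell. Cit.20267.1.S1_x_at read 12.04 and 12.02 at stage 1, 12.88 and 12.87 at stage 2, and 13.42 and 13.40 at stage 3. It stood higher at each later stage with no overlap, by 0.84 ± 0.025 at stage 2 (adjusted p = 1.39e-04), the largest rise of any member at that stage, and by 1.38 ± 0.025 at stage 3 (adjusted p = 5.06e-06). Cit.1479.1.S1_s_at read 7.34 and 7.25 at stage 1, 7.90 and 7.87 at stage 2, and 7.80 and 7.80 at stage 3. It had reached its higher level by stage 2, with a rise of 0.59 ± 0.041 there (adjusted p = 9.61e-04) and 0.51 ± 0.041 at stage 3 (adjusted p = 3.81e-04). Cit.23113.1.S1_at, at 6.11 and 6.07, 6.48 and 6.62, and 6.71 and 6.73 in stage order, also stood higher at each later stage, and rose by 0.47 ± 0.054 at stage 2 (adjusted p = 0.00361) and by 0.63 ± 0.054 at stage 3 (adjusted p = 4.71e-04).

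Several lipid transfer genes were highest at stage 2. Cit.20545.1.S1_x_at, whose name stops at nonspecific li, read 10.18 and 10.13 at stage 1, 10.47 and 10.50 at stage 2, and 9.92 and 9.98 at stage 3. Its stage 3 arrays were the lowest, so that it rose by 0.33 ± 0.035 at stage 2 (adjusted p = 0.00264) and fell by 0.20 ± 0.035 at stage 3 (adjusted p = 0.00583) against stage 1. In Cit.23115.1.S1_x_at the signals were 6.49 and 6.40, 6.89 and 6.83, and 5.78 and 5.87 in stage order. This gene had the same order of stages and wider steps, with a rise of 0.42 ± 0.051 at stage 2 (adjusted p = 0.00414) and a fall of 1.03 from stage 2 to stage 3 (adjusted p = 7.53e-05), which left it 0.62 below stage 1 (adjusted p = 4.0e-04). Cit.28785.1.S1_x_at, whose name stops at nonspecific, read 5.41 and 5.44, 5.79 and 5.81, and 5.50 and 5.34. It rose by 0.38 ± 0.060 at stage 2 (adjusted p = 0.00905) and fell by 0.38 from stage 2 to stage 3 (adjusted p = 0.00441), and its stage 3 arrays lay on both sides of those of stage 1 (adjusted p = 0.943).

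The lipid transfer probe sets that were brightest at stage 1 and stage 2, Cit.26307.1.S1_s_at and Cit.39543.1.S1_s_at, were lower at stage 3. By then Cit.20267.1.S1_x_at, which rose, was brighter (13.42 and 13.40) than Cit.39543.1.S1_s_at. Cit.39543.1.S1_s_at read 14.07 and 14.04 at stage 1, 14.13 and 14.10 at stage 2, and 13.19 and 13.18 at stage 3, and Cit.26307.1.S1_s_at read 14.36 and 14.38, 14.30 and 14.31, and 14.03 and 14.04. In both, the stage 3 arrays were below all others. Cit.39543.1.S1_s_at fell by 0.87 ± 0.028 at stage 3 against stage 1 (adjusted p = 1.91e-05) and Cit.26307.1.S1_s_at by 0.34 ± 0.024 (adjusted p = 2.51e-04), and neither passed at stage 2, where Cit.26307.1.S1_s_at passed with a trend in the prior variance (-0.06, adjusted p = 1.49e-04) or without moderation (adjusted p = 0.0189). Of the remaining lipid transfer genes called at stage 3, Cit.29259.1.S1_at rose by 0.37 ± 0.036 at stage 3 (adjusted p = 7.3e-04) and Cit.22746.1.S1_at by 0.53 ± 0.097 (adjusted p = 0.0074), while Cit.18386.1.S1_at fell by 0.40 ± 0.077 (adjusted p = 0.00856). Of these, the signals of Cit.22746.1.S1_at and Cit.18386.1.S1_at lay at 4.51 to 5.39, within the range of the reporter controls.

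GDSL lipases and esterases held the largest rises. Of 15 probe sets, 6 rose and 1 fell at stage 2 (median 0.27), where 20.2% of all citrus probe sets rose and 21.5% fell. At stage 3 against stage 1, 11 rose and 1 fell (73.3% and 6.67%, median 0.90), where 29.9% of all rose and 35.9% fell. From stage 2 to stage 3 the counts were again 11 and 1 (73.3% and 6.67%, median 0.78), where 29.1% of all rose and 36.5% fell. Cit.38686.1.S1_at, with a homologue named GDSL esterase lipase At5g45950-like, read 5.13 and 5.18 at stage 1, 5.52 and 5.65 at stage 2, and 9.78 and 9.83 at stage 3. The first 4 arrays lay within the range of the reporter controls, and the stage 3 arrays stood far above them. It rose by 4.65 ± 0.056 at stage 3 (adjusted p = 2.78e-06), the largest change of any member, and by 0.43 ± 0.056 at stage 2 (adjusted p = 0.00491).

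The next-largest GDSL rises belong to probe sets whose names disagree. Cit.12048.1.S1_at, Cit.12048.1.S1_s_at and Cit.12049.1.S1_at carry a GDSL name on the array and are named zinc finger in the DEG table, and which name is right cannot be told from the files. Cit.12048.1.S1_at read 8.74 and 8.71 at stage 1, 9.36 and 9.35 at stage 2, and 12.72 and 12.70 at stage 3. Cit.12048.1.S1_s_at, a probe set of the same target, read 9.32 and 9.31, 9.98 and 9.99, and 13.31 and 13.28. They moved alike, with a rise of 3.98 ± 0.026 at stage 3 in each (adjusted p = 1.89e-06) and of 0.62 and 0.67 at stage 2 (adjusted p = 2.82e-04 and 2.46e-04). Cit.12049.1.S1_at read 5.63 and 5.22, 6.01 and 5.46, and 7.52 and 7.36, so that its stage 1 and stage 2 arrays overlapped and those of stage 3 were above both. It rose by 2.01 ± 0.23 at stage 3 (adjusted p = 0.00138) and did not pass at stage 2 (adjusted p = 0.354). Both its stage 1 arrays lay within the range of the reporter controls, so that the size of its rise, 4.04-fold, is uncertain. Without these 3 probe sets, 4 of 12 GDSL probe sets rose and 1 fell at stage 2 (33.3% and 8.33%, median 0.13), and 8 rose and 1 fell at stage 3 (66.7% and 8.33%, median 0.60). Over all roles, 17 of 41 members rose at stage 3 (41.5%), 14 fell and 2 rose past 4-fold.

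Of the 11 GDSL probe sets outside the DEG table, 7 were called as rises and 1 as a fall at stage 3 against stage 1, and 3 were not called (63.6% rose and 9.09% fell, median 0.43, where 29.9% and 35.9% of all citrus probe sets did). The table holds genes picked by a 4-fold rule, so that the sizes outside it are limited by that choice. At stage 2, 3 rose and 1 fell (27.3% and 9.09%), beside 20.2% and 21.5% of all. Cit.17350.1.S1_at read 7.19 and 7.28 at stage 1, 7.66 and 7.78 at stage 2, and 8.64 and 8.68 at stage 3. It was higher at each later stage with no overlap, by 0.49 ± 0.055 at stage 2 (adjusted p = 0.00337) and by 1.43 ± 0.055 at stage 3 (adjusted p = 3.19e-05). Cit.2704.1.S1_s_at, at 11.53 and 11.52, 12.15 and 12.14, and 12.30 and 12.29, had most of its rise by stage 2 (0.62 ± 0.025, adjusted p = 2.57e-04) and was 0.77 above stage 1 at stage 3 (adjusted p = 1.91e-05). Its further rise of 0.15 from stage 2 to stage 3 passed (adjusted p = 0.00475), but not with each array centred on its median (0.11, adjusted p = 0.0925).

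Among the dim GDSL probe sets, named here after their values were seen, Cit.24677.1.S1_at rose by 1.10 ± 0.16 (adjusted p = 0.00307) and Cit.29612.1.S1_at by 0.93 ± 0.17 (adjusted p = 0.0078) at stage 3, both with every array within the range of the reporter controls. Small rises at stage 3 were also measured in a pair likewise named afterwards, Cit.26232.1.S1_at (0.42 ± 0.026, adjusted p = 1.44e-04) and Cit.37282.1.S1_at (0.43 ± 0.037, adjusted p = 4.67e-04), the second of them also within the range of the reporter controls on every array.

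A pair of GDSL genes turned between the stages. Cit.14745.1.S1_at read 10.08 and 10.09 at stage 1, 9.81 and 9.81 at stage 2, and 10.99 and 10.98 at stage 3. It was lowest at stage 2 and highest at stage 3, with a fall of 0.28 ± 0.024 at stage 2 (adjusted p = 0.00163) and a rise of 0.90 ± 0.024 at stage 3 (adjusted p = 1.17e-05). Cit.31292.1.S1_at did the reverse, with 5.89 and 5.86, 6.15 and 6.19, and 5.56 and 5.65 in stage order. It rose by 0.30 ± 0.041 at stage 2 (adjusted p = 0.00583), fell by 0.27 ± 0.041 at stage 3 (adjusted p = 0.0038) and was the only GDSL gene below its stage 1 level at the threshold then.

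Over the 2 successive steps, which share the stage 2 arrays, as many members turned as kept their direction. In both steps 8 members rose (18.2%, where 7.67% of all citrus probe sets did) and 2 fell (4.55%, where 9.55% of all did). A rise and then a fall was called in 6 (13.6%, where 9.07% of all had one), and a fall and then a rise in 4 (9.09%, where 8.52% of all had one). The 2 that fell in both steps were Cit.11240.1.S1_at and Cit.26284.1.S1_at, named CER1 and beta-ketoacyl on the array. Against stage 1, 8 members passed first at stage 3 as rises and 5 as falls, and 7 were called in opposite directions at stage 2 and stage 3. In no comparison did 7 members pass, 4 lipid transfer and 3 GDSL probe sets, of which 5 had every array within the range of the reporter controls. The shares of all citrus probe sets with these patterns were not counted, so that these counts show no trait of the members. The change from stage 2 to stage 3 exceeded that from stage 1 to stage 2 in 35 of 44 members (79.5%), as it did in 71.8% of all citrus probe sets. The 11 members that never exceeded the reporter controls held 0 of the limma calls at stage 2, also at an unadjusted p under 0.05. Their calls for stage 3 against stage 1 were 4 rises and 1 fall (36.4% and 9.09%). The remaining 33 had 16 rises and 13 falls (48.5% and 39.4%), and of all citrus probe sets 29.9% rose and 35.9% fell.

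Other genes of the DEG table with cuticle, suberin, lipid transfer or GDSL names were nearly all higher at stage 3. Among their probe sets, 5 have lipid transfer and 3 GDSL names, of families with roles outside the cuticle too. The array names of these genes did not begin with any of the chosen words, and the table holds genes picked for their change on these same arrays, so their directions are not independent evidence. Of 22 such probe sets, 21 rose and 1 fell at stage 3 against stage 1 (95.5% and 4.55%, median 2.46), where 29.9% and 35.9% of all citrus probe sets did. At stage 2, 12 rose and 2 fell (54.5% and 9.09%), where 20.2% and 21.5% of all did. Genes picked for their change are called more often than all by that choice. In 8 of the 22, both stage 1 arrays lay within the range of the reporter controls, so that the sizes of their rises are uncertain. The fall at stage 3 was that of protein eceriferum 1-like (Cit.11241.1.S1_s_at), a CER1 homologue by name, with 11.76 and 11.79 at stage 1, 11.57 and 11.58 at stage 2, and 8.60 and 8.63 at stage 3. It was lowest at stage 3 by a wide gap and fell by 3.16 ± 0.028 (adjusted p = 1.89e-06).

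Enzymes that make or modify cutin and suberin monomers were among the rises. A HOTHEAD-like gene, of a family thought to oxidize omega-hydroxy fatty acids in Arabidopsis, Cit.3339.1.S1_at, read 6.91 and 6.93 at stage 1, 8.40 and 8.24 at stage 2, and 11.43 and 11.34 at stage 3. It was higher at each later stage and rose by 4.47 ± 0.067 at stage 3 (adjusted p = 3.71e-06). The fatty acid hydroxylases of the cytochrome families CYP77A, CYP86A and CYP86B rose at stage 3 in all 4 of their probe sets in the DEG table, by 2.05 to 4.34. Of these, the CYP86A2-like Cit.28881.1.S1_s_at read 10.36 and 10.36 at stage 3, against 6.50 and 6.73 at stage 1, and rose by 3.75 ± 0.12 (adjusted p = 1.73e-05). All 3 feruloyl transferases of the table, which link ferulate to omega-hydroxy acids in suberin, rose at stage 3 by 1.93 to 3.15. Cit.15680.1.S1_at and Cit.15680.1.S1_s_at, both CYP77A, are of the same target. Stage 1 arrays of Cit.15680.1.S1_at, the CYP86B gene Cit.7191.1.S1_at and the feruloyl transferase Cit.15542.1.S1_at lay within the range of the reporter controls. The sizes of their rises are uncertain. Only genes picked for their change are counted here, not every such gene on the array.

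Wax ester and acyl activation genes of the table rose too. The WSD1-like acyltransferase Cit.14941.1.S1_at, of the wax ester synthases, read 7.87 and 7.78 at stage 3, against 4.26 and 4.21 at stage 1, and rose by 3.59 ± 0.043 (adjusted p = 2.77e-06), a size that is uncertain because its stage 1 arrays lay within the range of the reporter controls. Long-chain acyl synthetase 2-like (Cit.15381.1.S1_at) rose by 1.98 ± 0.057 at stage 3 (adjusted p = 1.38e-05) and fatty acyl reductase 2-like (Cit.4667.1.S1_at) by 1.96 ± 0.044 (adjusted p = 7.83e-06), the second of them also from stage 1 arrays within that range. A ketoacyl synthase 21-like gene, Cit.33327.1.S1_at, fell by 0.49 ± 0.068 at stage 2 (adjusted p = 0.00601) and rose by 2.79 ± 0.068 at stage 3 (adjusted p = 9.39e-06). The synthase 11-like member Cit.26284.1.S1_at stands against it, with a difference of -2.46 at stage 3. The table also names 5 lipid transfer and 3 GDSL probe sets that the array names do not reveal, and each rose at stage 3, by 2.15 to 2.79 and by 2.14 to 2.97.

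**Figure D4:**
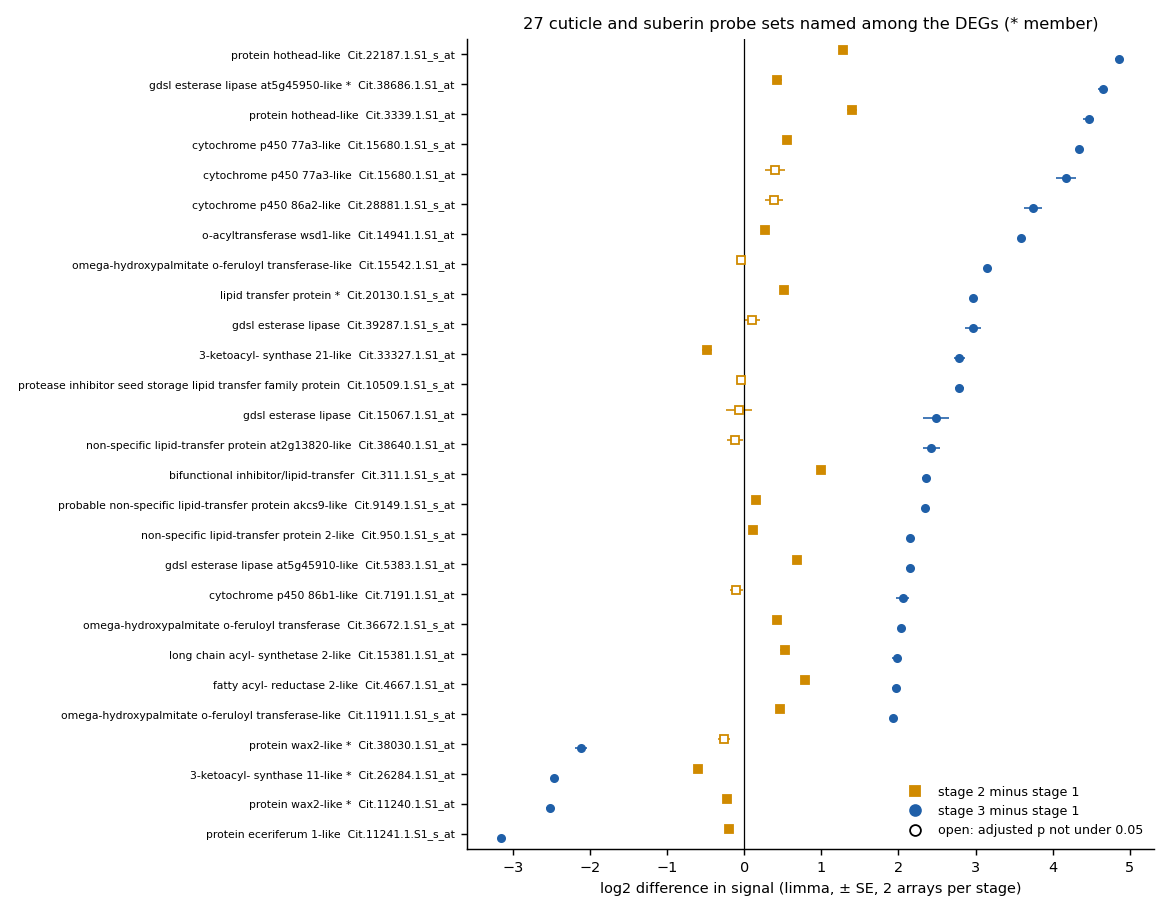
The log2 difference in signal against stage 1 at stage 2 (squares) and stage 3 (circles), with SE bars, is shown for 27 probe sets of the DEG table. These have cuticle, suberin, lipid transfer or GDSL names and are labelled by homologue, with members starred and open symbols where the adjusted p was not under 0.05. At stage 3, 23 lie above 0 and 4 below it, the lowest being eceriferum 1-like at -3.16.

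Genes of general fatty acid supply fell more often than they rose at stage 3, as did all citrus probe sets. This list takes array names such as acyl carrier, acetyl-CoA carboxylase, enoyl, stearoyl and omega-6. Of its 71 probe sets 16 rose and 34 fell at stage 3 against stage 1 (22.5% and 47.9%, median -0.16, where 29.9% and 35.9% of all did, median -0.04). At stage 2 the counts were 14 and 20 (19.7% and 28.2%, where 20.2% and 21.5% of all did). By array name it also caught 7 names of other pathways, and without them 16 of 64 rose and 30 fell at stage 3. These 64 still hold Cit.11083.1.S1_s_at, cut to glycero on the array and named a glycerophosphodiester phosphodiesterase in the DEG table. It had the list's largest rise at stage 3 (3.55 ± 0.032, adjusted p = 1.89e-06). Examples named after their values were seen are Cit.18455.1.S1_at, whose name begins acetyl-CoA car, with a fall of 0.95 ± 0.11 at stage 3 (adjusted p = 0.00127), and an omega-6 fatty acid gene (Cit.29914.1.S1_s_at), of the desaturases that add a double bond, with a rise of 0.81 ± 0.033 at stage 2 (adjusted p = 2.6e-04) and a fall of 0.65 ± 0.033 at stage 3 (adjusted p = 7.09e-05). A 3-oxoacyl gene (Cit.38765.1.S1_at) also went against the list with a rise of 2.92 ± 0.031 at stage 3 (adjusted p = 2.31e-06). Another 3-oxoacyl gene, Cit.22955.1.S1_s_at, fell by 1.33 ± 0.035 then (adjusted p = 1.12e-05).

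Markers of other tissues and a measure of RNA quality also moved between the stages. Beside the counts below, 20.2% of all citrus probe sets rose and 21.5% fell at stage 2 against stage 1. At stage 3 against stage 1, 29.9% of all rose and 35.9% fell. All 6 probe sets with shoot meristem names, which begin knott, shootme or clavata1, lay above the reporter controls on every array, and 5 rose and 1 fell at stage 3 against stage 1. The log2 of their summed signal was 11.16 to 11.20, 11.22 to 11.25 and 11.44 to 11.46 in stage order. Of 47 green tissue probe sets, 29 rose and 1 fell at stage 2 (61.7% and 2.13%), while at stage 3 6 were higher and 24 lower past the threshold (12.8% and 51.1%). The sums were 17.74 to 17.75, 17.95 to 17.96, and 17.58 in stage order. Of 10 xylem names, 7 rose and 1 fell at stage 3 (13.24, 12.93 to 12.94, and 13.67), and of 4 phloem names 3 rose and 1 fell (11.09 to 11.10, 11.07 to 11.11, and 11.37 to 11.42). Above the reporter controls on every array were 4 of these xylem and 3 of these phloem probe sets. The xylem fall was in Cit.2409.1.S1_s_at, a laccase by name. It read 11.64 and 11.62 at stage 1, 4.81 and 4.67 at stage 2, and 9.54 and 9.50 at stage 3. The 7 names kept for the epidermis, the tissue that makes the cuticle, all begin anthocy and are cut too short to mark it. Of these, 3 rose and 0 fell at stage 3 (42.9% and 0.0%). The log2 of their summed signal was 11.59 to 11.61, 11.50 to 11.53 and 12.48 to 12.49 in stage order. This was the largest difference of the 5 lists between stage 3 and stage 1. It rests mainly on 1 probe set, Cit.12437.1.S1_s_at, which rose by 1.21, while the others differed by -0.19 to 0.33. For actin, the 3′ minus 5′ difference in log2 signal, a sign of RNA integrity, was 1.62 and 1.66 at stage 3, against 1.87 and 1.94 at stage 1. The part of any of these in the members' changes was not tested.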

How the data were processed

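RNA of shoot tips was hybridized to the Affymetrix Citrus Genome Array, 2 arrays at each of 3 stages. The deposited values are log2 signals that the authors made with RMA in Expression Console, and the methods also name Microarray Suite. A second deposited table gave the array's text annotation. Its stage means match the means of the arrays, and its p-values, ratios and fold changes, the authors' own comparisons, were not used. That table lacks the name of 1 probe set that has values, which is no member.

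The 224 probe sets that are controls or not citrus were left out, and limma 3.58.1 (R 4.3.3; lmFit, contrasts.fit, eBayes) was fitted to 30171 probe sets on 6 arrays without covariates, since 2 arrays per stage say little of the spread by themselves. Benjamini-Hochberg adjustment was over all of them, and p-values measure the spread between these arrays only. SAM, which the methods name, was not run, because 2 arrays a group allow too few relabellings. The fit was tested on simulated data. Python 3.11.15 drew the tables and figures, with pandas 2.3.3, numpy 2.4.6 and matplotlib 3.10.9.

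The members, gene lists and tests were chosen with earlier results of these data known. Named genes were, per role and comparison, the up to 4 largest rises and falls past the threshold without overlap between arrays, all cuticle and wax genes, members past 4-fold, the brightest of each role and those that changed direction. Alternatives were other array scalings, variance models, thresholds, a replicate block, a filter on signal, other sets of members and each array left out in turn.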

Additional observations from a re-analysis of the deposited data

How the results depend on the processing

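Counts of members moved by over 1.5 times with the threshold and with the probe sets counted. At 2-fold or more, 0 members rose and 0 fell at stage 2 against stage 1 (0.759% and 1.15% of all citrus probe sets did). At stage 3 against stage 1, 8 rose and 3 fell (7.56% and 6.08% of all did). From stage 2 to stage 3, 7 rose and 4 fell (7.14% and 4.76% of all did). At 4-fold with an unadjusted p of at most 0.001, these counts were 0 and 0, 5 and 3, and 4 and 1. The shares of all citrus probe sets were 0.0729% and 0.361%, 2.16% and 1.25%, and 1.87% and 0.948%. Without probe sets ending in _s_at or _x_at, 6 of 27 members rose at stage 2 (22.2%, where 20.2% of all citrus probe sets rose). At stage 3 against stage 1, 13 rose (48.1%, where 29.9% of all rose) and 8 fell (29.6%, where 35.9% of all fell). From stage 2 to stage 3, 7 fell (25.9%, where 36.5% of all fell). Array scaling, the variance models, the fit of 4 arrays, the filter on signal, and the 3 alternatives chosen after seeing the data (without the 3 zinc finger names, 1 probe set per target, only members above the reporter controls) kept each count within 1.5 times. Leaving out 1 array at a time gave 12 to 16 rises and 6 to 7 falls at stage 2, 19 to 21 rises and 12 to 14 falls at stage 3 against stage 1, and 18 to 20 rises and 12 to 13 falls from stage 2 to stage 3. With the replicate number as a block, the counts were 18 and 9, 21 and 16, and 21 and 13, and the block ended no call of a member. Among those not passed without it, Cit.18594.1.S1_at at stage 3 against stage 1 (adjusted p = 0.0043) and Cit.38030.1.S1_at at stage 2 (adjusted p = 0.0298) passed with it. Replicate differences correlated between stages by 0.561, 0.475 and 0.463 across probe sets, a hint of pairing from the data. The methods take replicates from groups of trees, but neither they nor the labels tie a replicate number to the same trees at each stage. Over the single genes named by the rule, 1007 of 1061 values kept their direction and side of the threshold, 44 lost and 9 gained the call, and 1 changed sign: Cit.17912.1.S1_at at stage 3 against stage 1, which did not pass, gave -0.0367 without stage 1 replicate 2 and 0.0983 without stage 1 replicate 1. With 2 arrays per stage, and signals of 11 members within the range of the reporter controls, small changes are the least certain.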
